A study of Mus musculus with 6 samples.

Results

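The genes described here are 9 globin and erythroid genes, taken by their symbols from a table of 54134 genes: the alpha-type globins Hba-x, Hba-a1 and Hba-a2, the beta-type globins Hbb-y, Hbb-bh1, Hbb-bs and Hbb-bt, and the erythroid genes Alas2 and Slc4a1. All 9 symbols were found. They were measured by RNA-seq in E10.5 mouse tailbuds of the C57BL/6 strain, 4 wildtype (embryos N5, N6, N10 and N24) and 2 Cdx2P:Nr6a1 (embryos P4 and P13), with 1 library per embryo. Cdx2P:Nr6a1 embryos carried the long isoform of Nr6a1, a gene for an orphan nuclear receptor, under a Cdx2 promoter fragment. Each was an injected embryo and not a member of a stable line, and embryos that did not carry the transgene served as wildtype. The dissected tissue was everything caudal to the last somite, and the methods state no step that removes blood cells.

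Primitive erythroid cells are the first red cells of the mouse. They arise in the yolk sac, enter the circulation as nucleated cells and carry haemoglobins built from embryonic chains. Zeta globin (Hba-x) is the embryonic alpha-type chain, and epsilon y (Hbb-y) and beta h1 (Hbb-bh1) are the embryonic beta-type chains. Hba-a1 and Hba-a2 encode the adult alpha chain, which primitive cells also make, and Hbb-bs and Hbb-bt encode the adult beta chains of the haplotype that C57BL/6 carries. Alas2 encodes the erythroid form of the first enzyme of haem synthesis. Slc4a1 encodes band 3, the anion exchanger of the red cell membrane. In a bulk sample, fewer red cells and less RNA per red cell cannot be told apart.

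The globins lie in a pair of clusters, and their sequences set how well the counts of 1 gene can be separated from those of its neighbour. In mm10, the build named in the submitters' processing notes, the alpha-type genes are on the plus strand of chromosome 11: Hba-x at chr11:32276400-32278116, Hba-a1 at chr11:32283511-32284465 and Hba-a2 at chr11:32296489-32297298. The beta-type genes are on the minus strand of chromosome 7, with Hbb-y at chr7:103851749-103853216, Hbb-bh1 at chr7:103841637-103843164, Hbb-bs at chr7:103826534-103828096 and Hbb-bt at chr7:103812524-103813996. Alas2 is at chrX:150547375-150570638 and Slc4a1 at chr11:102348824-102366203. Each of the 7 globin transcripts had 3 exons.

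The embryonic beta-type genes differ from each other and from the adult type throughout the coding sequence. The following 75 bases, the length of a read, are coding bases 10 to 84 in exon 1 (GENCODE M21), at chr7:103853069-103853143 for Hbb-y, chr7:103843027-103843101 for Hbb-bh1 and chr7:103827792-103827866 for Hbb-bs, all read on the minus strand. Capitals mark the 37 of 75 bases that are not the same in all 4 beta-type genes, and Hbb-bt is identical to Hbb-bs over this stretch.
Hbb-y: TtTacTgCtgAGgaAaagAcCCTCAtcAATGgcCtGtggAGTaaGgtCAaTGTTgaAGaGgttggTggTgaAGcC
Hbb-bh1: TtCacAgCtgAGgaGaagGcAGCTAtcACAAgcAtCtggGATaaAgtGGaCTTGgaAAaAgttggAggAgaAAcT
Hbb-bs: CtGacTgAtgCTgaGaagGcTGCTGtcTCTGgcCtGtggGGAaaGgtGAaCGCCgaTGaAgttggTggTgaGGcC
Over the 444 coding bases, Hbb-y and Hbb-bh1 were 76.4% identical and Hbb-y and Hbb-bs 74.3% identical. Hba-x and Hba-a1 were 62% identical over 429 coding bases. For the alpha-type genes the stretch below is coding bases 144 to 218 in exon 2, at chr11:32277617-32277691 for Hba-x and chr11:32283972-32284046 for Hba-a1, with capitals at the 40 bases that differ. Hba-a2 is identical to Hba-a1 here.
Hba-x: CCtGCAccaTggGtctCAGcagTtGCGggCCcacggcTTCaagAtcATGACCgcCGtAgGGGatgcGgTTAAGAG
Hba-a1: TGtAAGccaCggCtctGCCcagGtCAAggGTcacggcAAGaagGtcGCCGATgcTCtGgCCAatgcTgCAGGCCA

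The adult-type pairs, in contrast, are near copies. Hbb-bs and Hbb-bt differ at 1 of 444 coding bases, and so do Hba-a1 and Hba-a2 at 1 of 429. The differing base is in capitals at the end of each stretch, coding bases 343 to 417 for the beta pair (chr7:103826692-103826766 and chr7:103812683-103812757) and 307 to 381 for the alpha pair (chr11:32284269-32284343 and chr11:32297086-32297160), in exon 3 of each gene.
Hbb-bs: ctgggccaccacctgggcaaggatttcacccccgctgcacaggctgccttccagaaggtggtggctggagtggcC
Hbb-bt: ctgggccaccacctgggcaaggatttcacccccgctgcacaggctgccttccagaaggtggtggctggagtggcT
Hba-a1: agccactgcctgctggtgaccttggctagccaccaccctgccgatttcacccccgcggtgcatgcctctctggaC
Hba-a2: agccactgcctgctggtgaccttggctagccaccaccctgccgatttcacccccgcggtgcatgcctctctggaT
Of the 554 distinct 75-base windows of the Hbb-bs transcript, 356 (64.3%) also occur in Hbb-bt, where they make up 56.6%. For the alpha pair, 389 windows are shared, 62.2% of those of Hba-a1 and 81% of those of Hba-a2. The other 5 genes share no window with any gene. How the counting treated reads that match both copies is not given in the sources used here, so each gene of a pair is given with the pair's sum.

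Promoter sequences (RefSeq, GRCm38.p6) were found for 7 of the 9 genes, and were searched on both strands for GATA with A or T before it and A or G after it, bound by GATA factors, for CACCC, bound by Krüppel-like factors, and for CCAAT. In the 300 bases around the start site, GATA letters were present in 6 of 7 (29.8% of all 32851 promoters), CACCC in 7 of 7 (57.5% of all) and CCAAT in 5 of 7 (37.4% of all). These counts describe letters and not bound sites. The 120 bases before the start site of 1 embryonic and 1 adult-type gene of each cluster, of Hbb-bt, whose level was compared with that of Hbb-bs, and of Alas2 are shown with these letters in capitals, whichever strand they were found on. They are chr11:32276480-32276599 (plus strand) for Hba-x, chr11:32283552-32283671 (plus) for Hba-a1, chr7:103853208-103853327 (minus) for Hbb-y, chr7:103827929-103828048 (minus) for Hbb-bs, chr7:103813924-103814043 (minus) for Hbb-bt and chrX:150547297-150547416 (plus) for Alas2.
Hba-x: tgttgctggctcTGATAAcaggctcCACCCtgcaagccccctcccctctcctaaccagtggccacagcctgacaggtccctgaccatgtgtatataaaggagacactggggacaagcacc
Hba-a1: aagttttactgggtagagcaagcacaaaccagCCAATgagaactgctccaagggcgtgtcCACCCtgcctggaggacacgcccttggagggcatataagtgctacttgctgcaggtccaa
Hbb-y: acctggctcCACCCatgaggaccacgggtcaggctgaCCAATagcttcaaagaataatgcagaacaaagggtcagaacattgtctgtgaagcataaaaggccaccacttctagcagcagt
Hbb-bs: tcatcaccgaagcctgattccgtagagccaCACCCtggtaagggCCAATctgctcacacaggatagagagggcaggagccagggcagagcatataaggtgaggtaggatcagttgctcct
Hbb-bt: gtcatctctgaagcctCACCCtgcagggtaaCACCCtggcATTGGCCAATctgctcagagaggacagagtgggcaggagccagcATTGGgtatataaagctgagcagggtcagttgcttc
Alas2: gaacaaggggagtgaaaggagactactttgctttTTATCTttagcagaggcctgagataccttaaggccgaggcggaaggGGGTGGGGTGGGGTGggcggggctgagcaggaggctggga
The Hbb-bs and Hbb-bt promoters both held CACCC followed by CCAAT, and Hbb-bt held further copies of both. Hbb-bs also held GATA letters at -210 to -205, outside the bases shown, and Hbb-bt held none in the 300 bases searched.

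Libraries held 44073460 to 67183802 counts, and all 9 genes passed the filter that left 12733 genes. The labels were checked on Nr6a1, which stood at 3.91, 5.18, 5.53 and 6.89 CPM (counts scaled to a common library total) in N5, N6, N10 and N24 and at 23.4 and 33.8 CPM in P4 and P13. All 8 tailbud markers listed were expressed, with sums of 2361 to 2649 CPM in wildtype and 2307 to 2549 CPM in Cdx2P:Nr6a1 libraries. The sums hide differences of single markers. Between genotypes 1 of the 8 was called (Cdx2, higher in Cdx2P:Nr6a1), against 1.59% of all genes tested. In 4 of the 8 the groups did not overlap, against 18.6%.

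The tailbuds held a strong primitive erythroid signature in both genotypes, dominated by the embryonic globins. The 7 globins took 2.03%, 1.05%, 0.831% and 1.55% of all counts in N5, N6, N10 and N24, and 1.01% and 1.39% in P4 and P13. N5 was highest and N10 lowest, and both Cdx2P:Nr6a1 libraries lay inside the wildtype range. Wildtype libraries averaged 1.36% ± 0.534 (SD, n = 4) and Cdx2P:Nr6a1 libraries 1.20% ± 0.27 (SD, n = 2) (exact permutation test, two-sided, p = 0.8). With 15 arrangements of 2 libraries against 4, this test cannot give a p under 0.0667. The difference of -0.163 percentage points became 0.0569 without N5 and 0.0273 without P4.

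Among the alpha-type genes, embryonic Hba-x was the most abundant. Its CPM, computed from the library totals, was 4849 in N5, 2149 in N6, 1627 in N10 and 3095 in N24, against 2178 in P4 and 2795 in P13. Wildtype libraries thus differed 2.98-fold from lowest to highest and enclosed both Cdx2P:Nr6a1 libraries. Hba-a1 stood at 570, 240, 192 and 336 CPM in N5, N6, N10 and N24, and at 251 and 324 CPM in P4 and P13. Hba-a2 stood at 222, 87.9, 73.2 and 126 CPM in the wildtype libraries and at 93.7 and 125 CPM in P4 and P13. All 3 genes took the same order among the wildtype libraries, with N5 highest, then N24, N6 and N10.

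Of the beta-type genes, Hbb-y gave the highest level of the 9 genes in every library. It stood at 9994, 5227, 4190 and 7931 CPM in N5, N6, N10 and N24, and at 4884 and 6877 CPM in P4 and P13. Hbb-bh1 stood at 4477, 2706, 2187 and 3975 CPM in the wildtype libraries and at 2615 and 3695 CPM in P4 and P13. Both repeated the order of the alpha-type genes, with a range of 2.39-fold for Hbb-y and 2.05-fold for Hbb-bh1 within wildtype.

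The adult-type beta genes were far lower and did not move together. Hbb-bt stood at 109, 41.1, 29.8 and 62.6 CPM in N5, N6, N10 and N24, and at 45.3 and 48.9 CPM in P4 and P13, in the same order among wildtype libraries as the embryonic globins. Hbb-bs stood at 31.7, 35.3, 14.3 and 10.2 CPM in the wildtype libraries and at 40.2 and 55.0 CPM in P4 and P13. N24, the second highest wildtype library for the other genes, was the lowest for Hbb-bs, and P4 and P13 both exceeded the highest wildtype value. The Hbb-bs counts behind these values ran from 457 in N24 to 3692 in P13.

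The erythroid enzyme and membrane genes tracked the embryonic globins. Alas2 stood at 166, 80.0, 70.8 and 116 CPM in N5, N6, N10 and N24, and at 82.0 and 111 CPM in P4 and P13. Slc4a1 stood at 418, 190, 158 and 266 CPM in the wildtype libraries and at 173 and 239 CPM in P4 and P13. For every 1000 Hbb-y counts there were 14.6 to 16.9 Alas2 counts and 33.5 to 41.8 Slc4a1 counts over the 6 libraries. These ratios ranged 1.16-fold and 1.25-fold, whereas the CPM of the same genes ranged 2.34-fold and 2.64-fold.

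**Figure D1:**
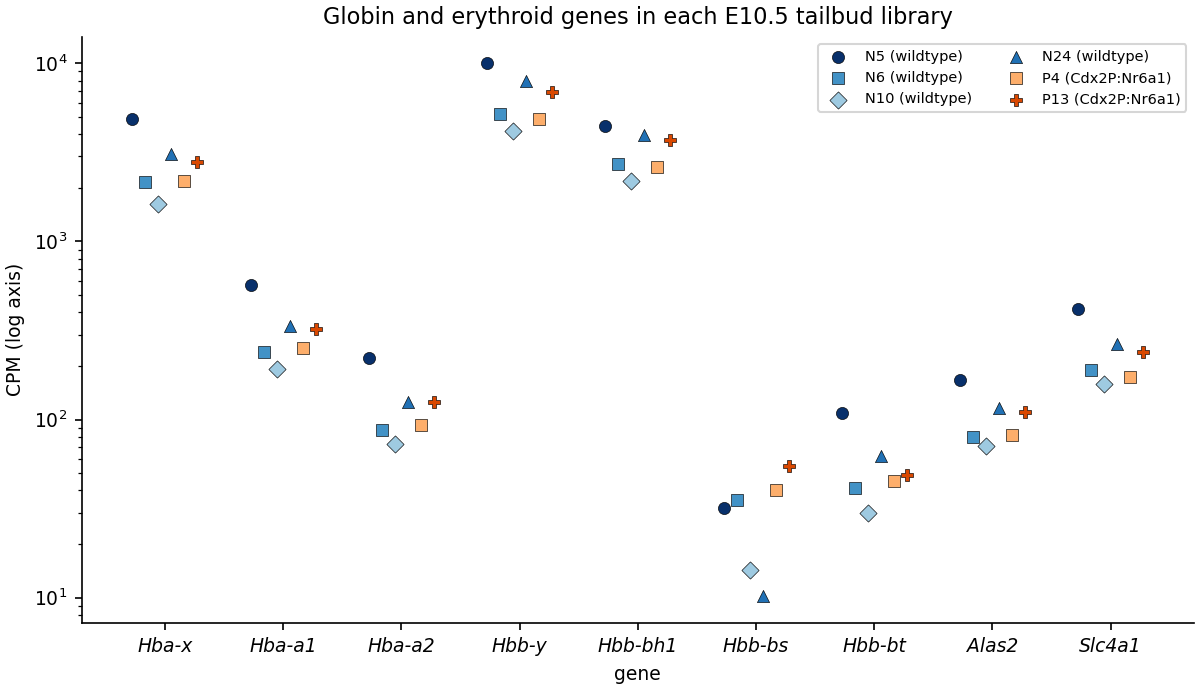
CPM (log axis) of the 9 genes in the 6 libraries, 1 point per library, blue for wildtype and orange for Cdx2P:Nr6a1. In 8 genes N5 is highest and N10 lowest, with P4 and P13 between them, and in Hbb-bs P13 (55.0 CPM) and P4 (40.2 CPM) are highest and N24 (10.2 CPM) is lowest.

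Levels of different genes were compared per kb of exon. In all 6 libraries the order was Hbb-y, Hbb-bh1, Hba-x, Hba-a1 and Hba-a2, from highest to lowest. On this scale the wildtype means were 10798 ± 4156 CPM per kb for Hbb-y, 5443 ± 1743 for Hbb-bh1, 3124 ± 1510 for Hba-x, 412 ± 207 for Hba-a1 and 191 ± 101 for Hba-a2 (SD, n = 4). Only Hba-x and Hba-a1 had wildtype ranges that did not overlap among these neighbours. Within each library, every step of the order held per kb. Below them came Hbb-bt (86.4 ± 50 CPM per kb), Slc4a1 (52.7 ± 23.6), Alas2 (45 ± 17.9) and Hbb-bs (29.8 ± 16.3). The wildtype ranges of these 4 overlapped, and Hbb-bs was above Alas2 in 3 of 6 libraries. Per 1000 windows found in no other gene, a scale added after the values were seen, the step from Hba-a1 to Hba-a2 was not kept. There Hba-a2 was higher in N5 (2442 against 2417 CPM) and P13 (1375 against 1374 CPM), and Hba-a1 was higher in N6, N10, N24 and P4.

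The alpha-type ratio was steadier than the levels of its genes. The embryonic to adult-type alpha ratio, Hba-x over Hba-a1 plus Hba-a2 per kb, was 4.99, 5.36, 5.02 and 5.47 in N5, N6, N10 and N24, and 5.16 and 5.08 in P4 and P13. Hba-x thus made up 83.3% to 84.6% of alpha-type globin per kb in every library, and P4 and P13 lay within the wildtype range. The mean log2 ratios differed by -0.025 (exact permutation test, two-sided, p = 0.733). Leaving out 1 library moved this difference between -0.0453 (without N5) and -0.00103 (without N24). The Hba-x share given here holds per kb only, since the exon length includes stretches that Hba-a1 and Hba-a2 share. Per 1000 windows found in no other gene, Hba-x over Hba-a1 plus Hba-a2 was only 1.37 to 1.52.

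The embryonic to adult-type beta ratio, Hbb-y plus Hbb-bh1 over Hbb-bs plus Hbb-bt per kb, was 117, 121, 167 and 186 in N5, N6, N10 and N24, and 103 and 120 in P4 and P13. Adult-type transcripts were therefore a small fraction of beta-type globin in all libraries. The ratio of P4 was below every wildtype value and that of P13 was above that of N5 alone. On the log2 scale wildtype libraries averaged 7.18 ± 0.331 (SD, n = 4) and Cdx2P:Nr6a1 libraries 6.79 ± 0.158 (SD, n = 2), a difference of -0.387 (exact permutation test, two-sided, p = 0.2). On raw counts P4 (87.7) and P13 (102) both lay below the wildtype libraries (103 to 164). Per 1000 windows found in no other gene they also did (36.8 and 42 against 43.7 to 76.9). The same exact permutation test gave p = 0.133 on each of these scales.

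Hbb-bh1, the beta-type gene that primitive cells express early, and Hbb-y, which they express more as they mature, gave a ratio per kb of 0.463, 0.535, 0.539 and 0.518 in N5, N6, N10 and N24. In P4 and P13 it was 0.553 and 0.555, above all 4 wildtype values. The difference in mean log2 ratio was 0.112, and the exact permutation test (two-sided) gave p = 0.267. Without N5 the difference was 0.0626. N5, the library with the most globin, held the lowest ratio.

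The alpha to beta globin ratio per kb was 0.266, 0.213, 0.203 and 0.204 in N5, N6, N10 and N24, and 0.229 and 0.209 in P4 and P13. The log2 means differed by -0.00735 (exact permutation test, two-sided, p = 1), a value that turned to 0.0844 without N5. Over the 5 main tests of share and ratios, the lowest Benjamini-Hochberg adjusted value of the exact permutation p was 0.667. The exon length used includes stretches that the near copies share. Per 1000 windows found in no other gene, a scale added after the values were seen, the alpha-type ratio fell to 1.37 to 1.52 and the beta-type ratio to 36.8 to 76.9, and the alpha to beta ratio rose to 0.324 to 0.431.

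The near-copy pairs behaved differently from each other. Hba-a1 took 72%, 73.2%, 72.4% and 72.8% of the counts of its pair in N5, N6, N10 and N24, and 72.9% and 72.2% in P4 and P13. Its counts were 2.57 to 2.73 times those of Hba-a2, beside a ratio of 2.59 between the windows particular to each gene. Per 1000 such windows, Hba-a1 and Hba-a2 stood at 2417 and 2442 CPM in N5 and at 812 and 804 CPM in N10. The proportion of the alpha pair lay between 72% and 73.2%, although the 95% Clopper-Pearson intervals of N5 (71.5% to 72.4%) and N6 (72.5% to 73.8%) did not overlap.

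Hbb-bt took 77.5% (95% interval 76.5% to 78.5%), 53.8% (52.3% to 55.3%), 67.6% (65.7% to 69.4%) and 86.0% (84.8% to 87.2%) of the counts of its pair in N5, N6, N10 and N24. It took 53% (51.3% to 54.6%) in P4 and 47.1% (45.9% to 48.3%) in P13. The intervals are exact Clopper-Pearson intervals and cover counting error only. Among wildtype libraries the spread was well beyond counting error, from 1.16 Hbb-bt counts per Hbb-bs count in N6 to 6.16 in N24, and P4 (1.13) lay next to N6. This ratio was singled out after the values were seen and was not tested between genotypes. The windows particular to each gene gave a ratio of 1.38. For every 1000 Hbb-y counts there were 7.11 to 10.9 Hbb-bt counts, and from 1.28 (N24) to 8.24 (P4) Hbb-bs counts.

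**Figure D2:**
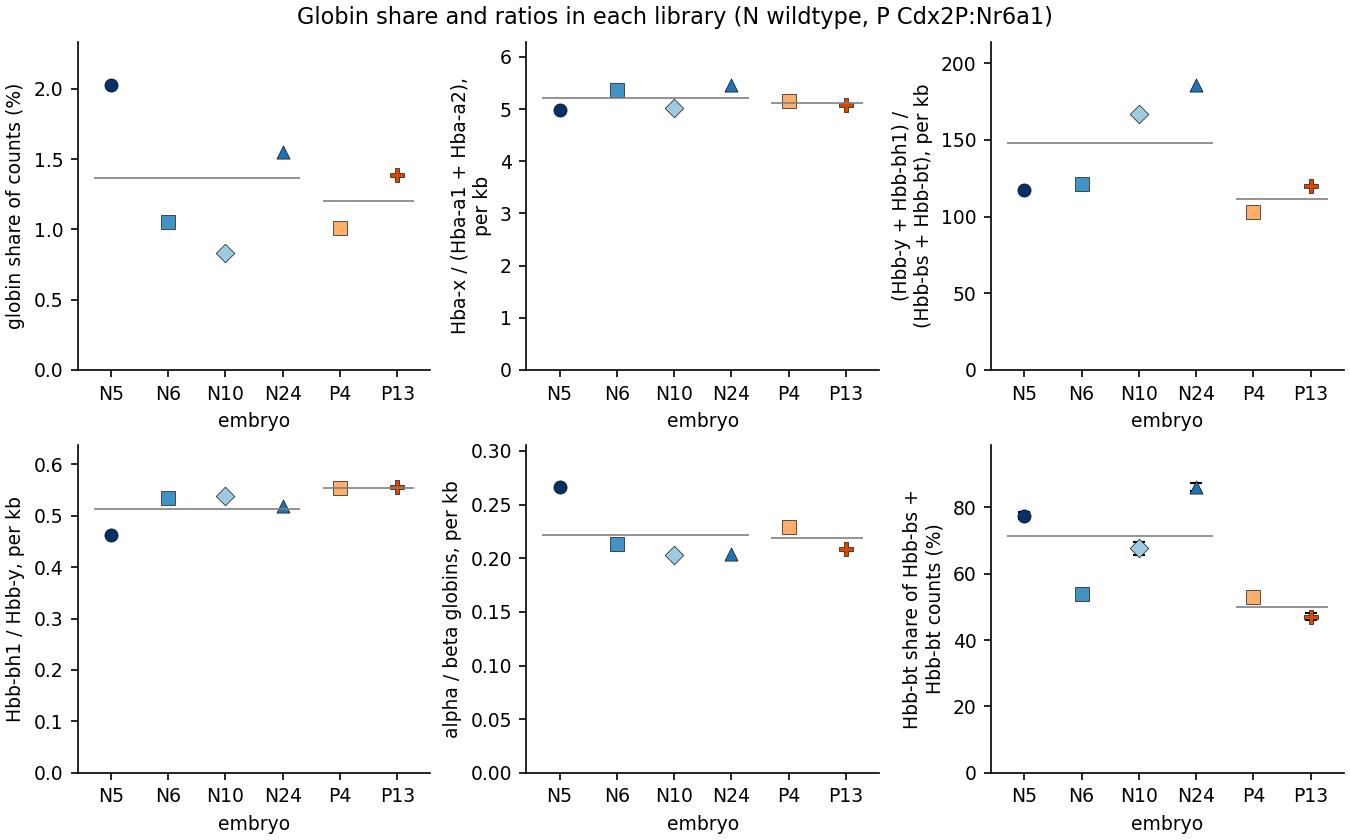
Globin share of counts, 4 globin ratios per kb and the Hbb-bt share of Hbb-bs plus Hbb-bt counts in each library, all axes from 0. Points are libraries, grey lines are group means, and bars in the last panel are 95% Clopper-Pearson intervals. The alpha-type ratio stays between 4.99 and 5.47, whereas the Hbb-bt share runs from 47.1% in P13 to 86.0% in N24.

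The spread of the 9 genes within wildtype was large beside that of all genes tested. The SD of log2(CPM + 0.5) over the 4 wildtype libraries was 0.48 for Hbb-bh1, 0.57 for Hbb-y, 0.68 for Hba-x and up to 0.85 for Hbb-bs, with a median of 0.68. Over all 12733 genes tested the median SD was 0.08 and the 95th percentile 0.26. Only 123 genes had an SD above that of Hbb-bh1, the least variable of the 9, and these include the other 8. In Cdx2P:Nr6a1, P13 was above P4 for all 9 genes, by 1.08-fold for Hbb-bt and 1.41-fold for Hbb-y and Hbb-bh1 as the lowest and highest values.

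**Figure D3:**
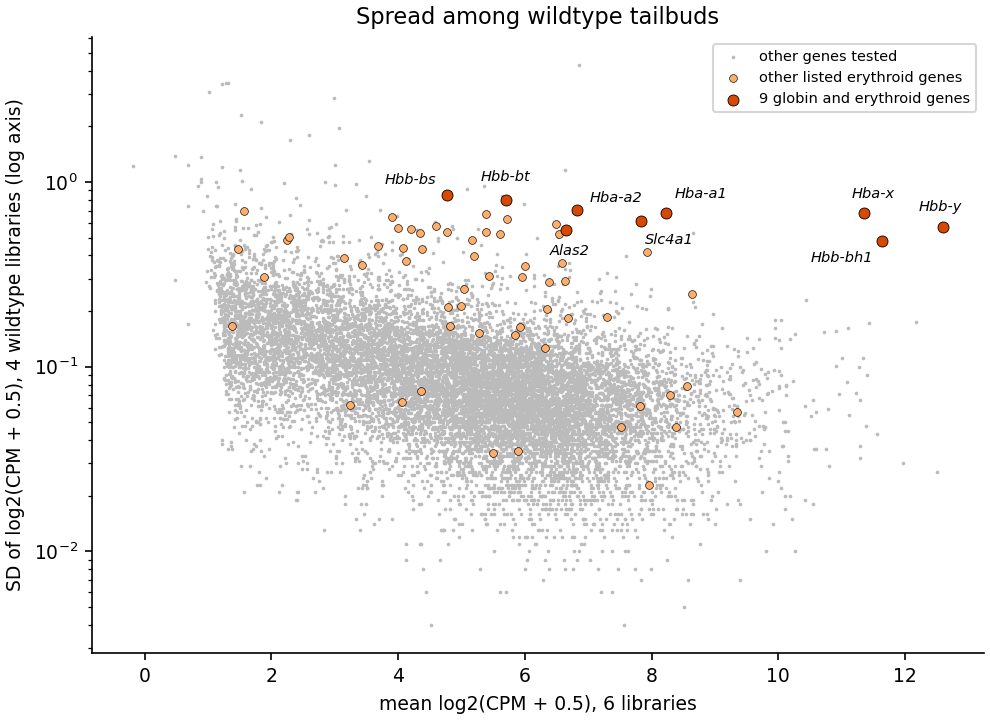
SD of log2(CPM + 0.5) over the 4 wildtype libraries (log axis) against the mean over 6 libraries, 1 point per tested gene, with the 9 genes in dark orange and the other listed erythroid genes in light orange. The 9 genes lie between 0.48 and 0.85, above nearly all genes tested.

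The order of libraries recurred across the erythroid programme. Hba-x, Hba-a1, Hba-a2, Hbb-y, Hbb-bh1, Hbb-bt, Alas2 and Slc4a1 were highest in N5 and lowest in N10, and so were 33 of 57 tested genes in 7 lists of other erythroid genes, against 7.35% of all genes tested. With the mean profile of the 9 genes over the 6 libraries, 30 of the 57 had a Pearson r above 0.9, against 2.67% of all genes outside the 9. These are descriptions over 6 libraries, and the genes share each library's tissue and depth. All 7 haem synthesis genes had N5 highest and N10 lowest, among them Cpox (124 CPM in N5, 81.9 in N10) and Urod (123 and 93.3 CPM), which encode enzymes on the path to protoporphyrin. So did 10 of 15 red cell membrane genes, such as the beta spectrin gene Sptb (159 CPM in N5, 60.4 in N10), and 7 of 9 other erythroid genes, such as the carbonic anhydrase gene Car2 (152 CPM in N5, 66.9 in N10) and, over a narrow range, the peroxiredoxin gene Prdx2 (687 and 626 CPM). Of the erythroid transcription factors 5 of 9 did, among them the GATA1 cofactor gene Zfpm1 (56.5 and 35.5 CPM) and, again narrowly, Ldb1 (238 and 216 CPM).

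Genes of iron handling and globin regulation followed it in part. Among 10 genes of iron uptake and haem transport only 3 had both extremes in these libraries. The mitochondrial iron importer gene Slc25a37 had 352 CPM in N5 and 189 CPM in N10, and the ferritin heavy chain gene Fth1 had 487 and 337 CPM. The transferrin receptor gene Tfrc ran from 280 CPM in P13 to 356 CPM in P4, and Bnip3l, which acts in the clearance of mitochondria, ran the opposite way to the 9 genes (131 CPM in N5, 175 CPM in N10, r = -0.89). Among membrane skeleton genes, Epb41 (303 to 349 CPM) and Dmtn (70.2 to 86.6 CPM) varied little. Of 6 regulators of globin switching 0 had both extremes in N5 and N10, where 7.35% of all genes did, and Zbtb7a, which encodes a repressor of globin genes, stood at 24.1 to 33.5 CPM (r = 0.90). Among other globin genes, Hbq1b stood at 1.61 to 3.76 CPM, Hbb-bh0 at 0.233 to 1.08 CPM and Hbb-bh2 at 0.251 to 0.595 CPM.

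Markers of other blood and vessel cells were not highest in N5 as sums. In N5 the 12 endothelial markers summed to 276 CPM and the 8 platelet markers to 18.5 CPM, the lowest sums of the 6 libraries, with up to 353 CPM (P13) and 38.1 CPM (N6) elsewhere. The platelet marker Gp1bb was at 0 in N5 and P4. The 12 macrophage markers summed to 20.4 to 41 CPM in wildtype, 22.6 CPM in P4 and 61.8 CPM in P13, of which Lyz2 gave 28.7 CPM. None of the 25 tested genes of these lists had an r above 0.9 with the profile of the 9 genes, a share that does not stand apart from the 2.67% of all genes outside the 9. Their part in the erythroid levels was not tested.

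**Figure D4:**
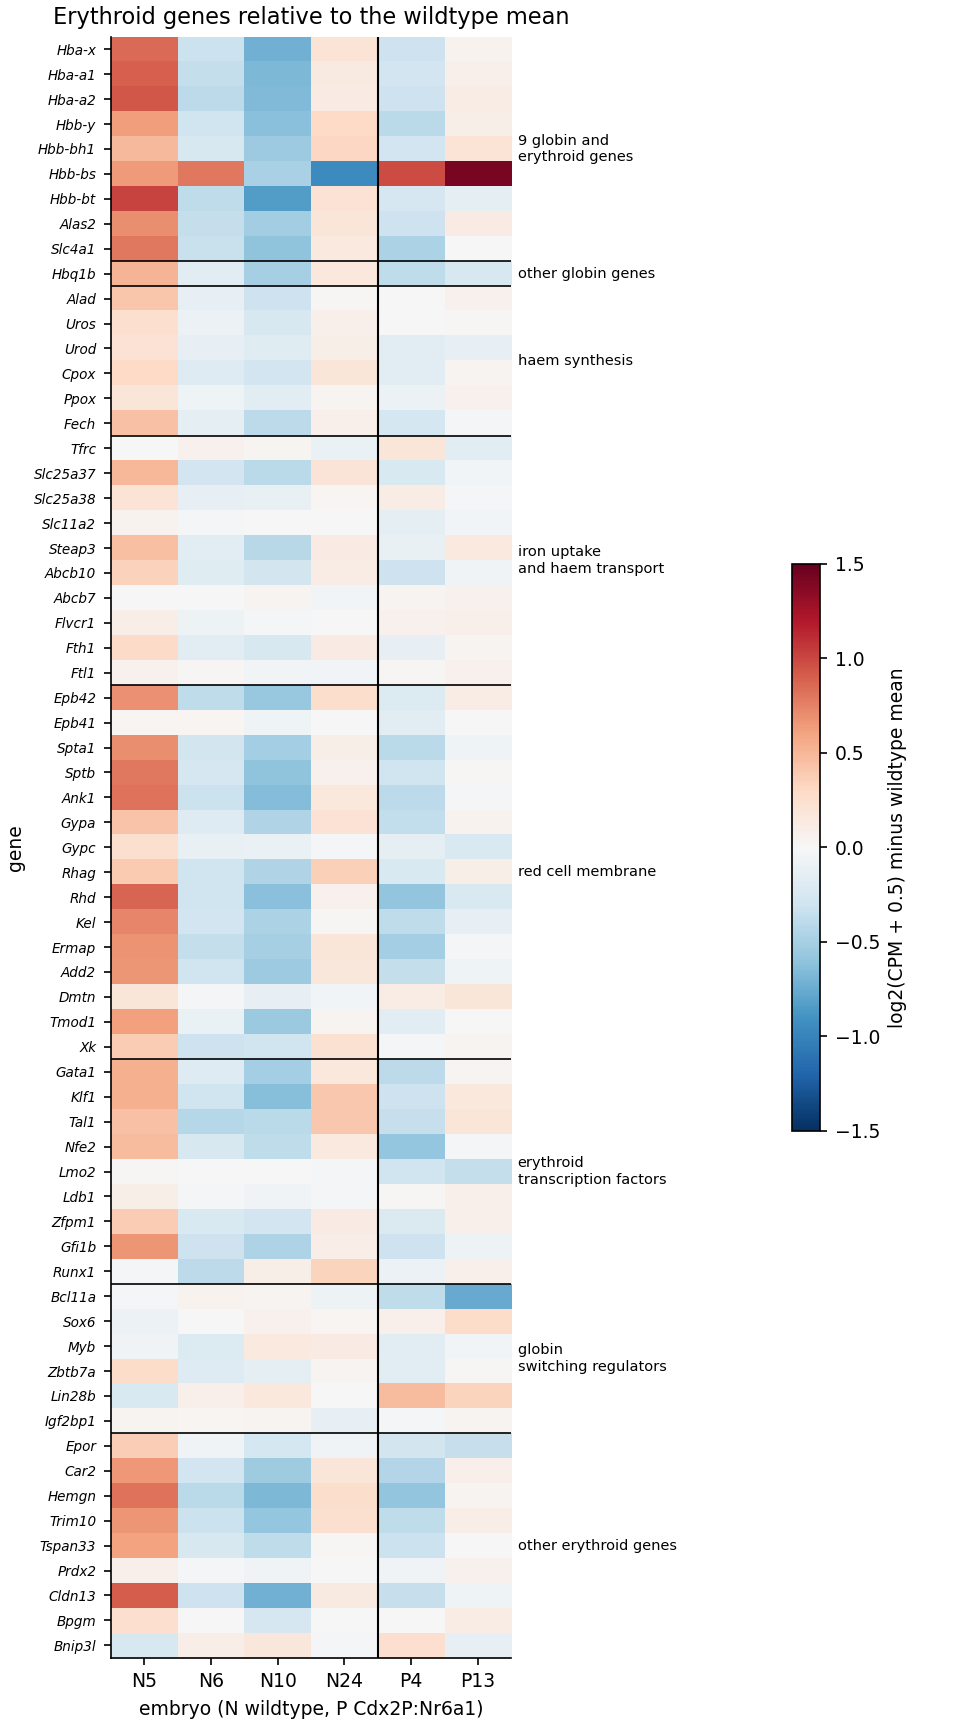
log2(CPM + 0.5) minus the wildtype mean for the 9 genes and all but 1 of the 57 tested genes of the other erythroid lists (rows) in the 6 libraries (columns), red above and blue below the wildtype mean. N5 is red and N10 blue in most rows, and Hbb-bs, Lmo2, Bcl11a and Lin28b depart from this.

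The genes whose profile over the 6 libraries was most like the mean of the 9 were 6030468B19Rik (r = 0.994), Ints1, Sbf1, Gm13436, Wnk4, Fbxl6, Steap3, Sox12, Nol12 and Pdzk1ip1 (r = 0.987). Of these 10, Steap3, an iron reductase gene of the endosome, is the only one in an erythroid list. The likeness is one of order and shape and not of size: from lowest to highest library 6030468B19Rik ranged 2.57-fold, Pdzk1ip1 2.5-fold and Sox12 1.08-fold.

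Between genotypes, no change of the 9 genes passed the test. The edgeR quasi-likelihood test at an FDR under 0.05 called 0 of 9, against 1.59% of all genes tested, and neither the likelihood ratio test of edgeR nor DESeq2 called any. At an unadjusted p under 0.05, 1 of 9 was higher in Cdx2P:Nr6a1 (Hbb-bs), against 5.54% of all genes, and 0 of 9 were lower, against 4.99%. Hbb-bs was also the only 1 of 9 whose groups did not overlap, against 18.6% of all genes tested.

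The embryonic globins differed by log2 fold changes of -0.24 ± 0.36 for Hba-x, -0.22 ± 0.31 for Hbb-y and -0.09 ± 0.26 for Hbb-bh1 (± SE), Cdx2P:Nr6a1 over wildtype, with edgeR adjusted p of 0.913, 0.906 and 0.963. Their 95% intervals ran from -1.05 to 0.56, from -0.91 to 0.47 and from -0.68 to 0.51. Differences inside these intervals were not excluded at this spread between embryos. Hba-a1 and Hba-a2 both differed by -0.22, Hbb-bt by -0.37, Alas2 by -0.16 and Slc4a1 by -0.33. All 8 values changed sign without N5, when they lay between 0.01 and 0.19.

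Hbb-bs differed by 1.05 ± 0.41 (95% interval 0.12 to 1.98) with an edgeR adjusted p of 0.376. The difference was positive without each library in turn, from 0.80 to 1.34. Summed with Hbb-bt, with which it shares most windows, the pair stood at 141, 76.5, 44.2 and 72.7 CPM in N5, N6, N10 and N24 and at 85.5 and 104 CPM in P4 and P13, and differed by 0.18 ± 0.35 (edgeR adjusted p = 0.946). When genes of low count were kept in the fit, 6 of the 9 genes passed the threshold (Hbb-bs and Hba-x, Hba-a1, Hba-a2, Hbb-bt and Slc4a1), against 2.69% of the 32579 genes then tested, with the same fold changes.

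**Figure D5:**
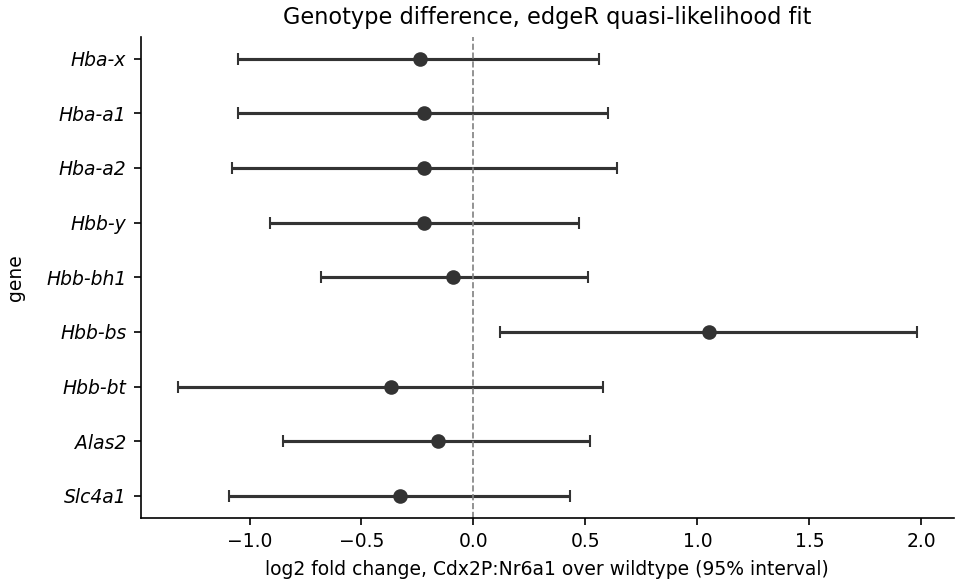
log2 fold change of the 9 genes, Cdx2P:Nr6a1 over wildtype, with 95% intervals from the edgeR quasi-likelihood fit. The intervals of 8 genes include 0, and that of Hbb-bs runs from 0.12 to 1.98.

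In the 7 lists of other erythroid genes, 2 of 57 tested genes were called, both lower in Cdx2P:Nr6a1, against 1.59% of all genes tested called in either direction, a count near that background. The median log2 fold change was -0.13 against 0.00 for all genes tested. Lmo2, whose product bridges erythroid transcription factors, stood at 273, 270, 271 and 263 CPM in N5, N6, N10 and N24 and at 219 and 210 CPM in P4 and P13. It fell by 0.33 on the log2 scale (SE 0.04, edgeR adjusted p = 0.00787), a call that was lost without either Cdx2P:Nr6a1 library, and its profile did not follow the 9 genes (r = -0.03). Bcl11a, a repressor of embryonic globin genes, stood at 18.2, 19.4, 19.2 and 17.7 CPM in the wildtype libraries and at 14.2 and 10.8 CPM in P4 and P13. It fell by 0.58 (SE 0.12, edgeR adjusted p = 0.0459), a call that was lost without any 1 of the 4 wildtype libraries and without P13. Lin28b, an RNA-binding protein gene tied to fetal blood formation, stood at 46.6 to 60.8 CPM in wildtype and at 76.2 and 68.8 CPM in P4 and P13, and its difference of 0.40 did not pass (edgeR adjusted p = 0.0836). Lin28b was called by the likelihood ratio test of edgeR, by DESeq2 and without the filter on low counts, with an adjusted p from 1.68e-07 to 0.49 over the 14 alternatives without a replicate block. Both Lmo2 and Bcl11a are also expressed outside the blood, and the cells that hold their transcripts in the tailbud were not identified here.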

How the data were processed

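RNA-seq libraries were made from E10.5 tailbuds (75 bp single-end reads, stranded mRNA kit). The stage is that of the labels, and a heading in the study's source data gives an earlier stage. The authors aligned reads with STAR to mm10 and deposited raw counts per gene for the 6 libraries, without normalization. The counting program and its handling of reads that match several genes are not given in the sources used here. A deposited table of edgeR results (fold changes, p-values, FDR, CPM) was not used. The count table held 0 columns of other samples. CPM was computed from column totals, 44073460 to 67183802 counts per library, and divided by the deposited exon length where genes were compared.

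A gene was tested where 2 or more libraries had over 10 counts and over 2 CPM of it, in R 4.3.3 with edgeR 4.0.16 (TMM, quasi-likelihood test, genotype as the only term, Benjamini-Hochberg FDR under 0.05). DESeq2 1.42.0 served as an alternative. Tables, exact tests and plots used scipy 1.17.1, numpy 2.4.6, matplotlib 3.10.9 and pandas 2.3.3 under Python 3.11.15. SE is the fold change divided by the square root of F. Shares and ratios were compared by exact permutation tests. The fits were tested on simulated data. Libraries of a group differed by more than sampling noise and were kept apart. The p-values measure the spread between these embryos.

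The text names the 9 genes, the 3 most expressed and all called genes of each erythroid list, the 10 genes most like the mean profile (log2(CPM + 0.5)), and Nr6a1. 1 gene named by this rule is not reported here. Other list and marker genes named were chosen after their values were seen. The genes and lists were chosen with earlier results of these data known. Alternatives were 15 other fits, ratios of raw counts or per distinct window, the TMM library size and leaving out each library.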

Additional observations from a re-analysis of the deposited data

Results flagged for a closer look

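Of 73 values or genes checked over the 4 wildtype libraries, 1 had a library far from the other 3, where chance gives about 1 in 20. Igf2bp1, an RNA-binding protein gene of the globin switching list, stood at 347 CPM in N24 and at 389, 385 and 388 CPM in N5, N6 and N10. Its level was 368 and 388 CPM in P4 and P13, and its log2 fold change was 0.00 (edgeR adjusted p = 0.997). None of the 9 globin and erythroid genes and none of their ratios had such a library.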

How the results depend on the processing

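No call among the 9 genes appeared under 13 of 15 other fits. Without the filter on low counts 6 of the 9, 14 other erythroid genes and 876 genes in all were called, and Hbb-bs had an adjusted p of 1.18e-35 at the same fold change. The cause was not tested. The edgeR likelihood ratio test called 401 genes in all and DESeq2 477. Scaling by library size alone called 1 listed erythroid gene (Lmo2) in place of 2. With each library left out in turn, 0 of the 9 genes, 0 to 1 listed erythroid genes and 61 to 175 genes in all were called. Where that left 1 Cdx2P:Nr6a1 library, it was assumed to vary like the wildtype group. The log2 fold changes then ran from -0.45 to 0.11 (Hba-x), -0.43 to 0.17 (Hba-a1), -0.45 to 0.19 (Hba-a2), -0.50 to 0.02 (Hbb-y), -0.36 to 0.15 (Hbb-bh1), -0.60 to 0.08 (Hbb-bt), -0.41 to 0.12 (Alas2) and -0.59 to 0.01 (Slc4a1). The difference in globin share ran from -0.354 to 0.0569 percentage points and that in log2 alpha to beta ratio from -0.0722 to 0.0844. Summing the near copies turned Hbb-bt from -0.37 to 0.18, the value of its pair.

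The replicate numbers pair no embryos by any label, and same-numbered libraries deviated from their group means with correlations of 0.27 and -0.226 over 12733 genes. A fit with the replicate block, in which only numbers 1 and 2 occur in both groups, called 442 genes in all, 4 listed erythroid genes (Bcl11a, Epor, Lin28b and Lmo2) and 1 of the 9, Hbb-bs (log2 fold change 0.49, edgeR adjusted p = 0.00525). With 2 Cdx2P:Nr6a1 embryos and genes that differ up to 3.66-fold within wildtype, only large differences could pass the test.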

Other observations

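Several erythroid genes were near or at 0 in tailbuds that held abundant embryonic globin. Car1, an adult red cell carbonic anhydrase gene, stood at 0 to 0.149 CPM, the water channel gene Aqp1 at 0.407 to 0.819 CPM and the theta-type globin gene Hbq1a at 0.0222 to 0.142 CPM. Icam4 and Hbb-bh3 were at 0 in all libraries. Whether a 0 reflects absent expression or the way reads were counted was not tested. Epor, the erythropoietin receptor gene, stood at 45.1, 33.5, 29.1 and 33.7 CPM in N5, N6, N10 and N24 and at 28.7 and 27.3 CPM in P4 and P13, below all wildtype values, with an edgeR adjusted p of 0.455.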
